A study of Mus musculus with 58 samples.

Results

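DPY30-depleted mouse embryonic stem (mES) cells were followed here from day 4 to day 6 of differentiation with retinoic acid (RA). The comparison rests on 4 of the 58 libraries of the series, 2 labelled auxin RA day 4 and 2 labelled auxin RA day 6, which were picked by these labels and by no measured value. All of them are Quant-seq libraries, in which reads from the 3′ ends of polyadenylated RNA count transcripts. The cells are E14 mES cells of the 129/Ola background whose DPY30 is fused to the miniAID degron (DPY30–mAID), so that auxin directs the protein to degradation. The control cells carried the same tag and received DMSO. RA was given at 1 µM without LIF and renewed daily in both arms. The labels do not state when auxin was added relative to RA, or whether the line is 1 clone. They number the libraries of a group 1 and 2 without naming separate cultures, so p-values measure the spread between libraries, which may be technical.

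DPY30 is a core subunit shared by the SET1/COMPASS complexes, the enzymes that methylate histone H3 at lysine 4 around promoters and enhancers. RA binds nuclear receptors that sit on DNA and switch on target genes, among them the Hox genes and the genes that take up and break down RA itself. In mES cells the withdrawal of LIF together with RA ends the pluripotent state, and the cells go on to neural, endodermal or epithelial fates depending on culture. As all values come from mixed cultures, fewer cells of a type and less RNA per cell cannot be told apart.

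The 4 libraries held 1264241 to 1686055 reads that fell in annotated 3′ UTRs. The counted reads were 43.5% and 44.4% of all reads in the day 4 libraries but 38.3% and 34.9% in the day 6 libraries, against 50.2% to 50.5% in DMSO cells on the same days. Levels are given as CPM, the reads of a gene relative to the library's counted reads after TMM scaling, a correction for differences in RNA composition. The 2 files of DMSO day 6 held identical counts for all 20177 genes, so they stand for 1 library, which gives context and no test.

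The 2 auxin day 6 libraries stood apart from each other. Of 6615 genes with a mean of at least 20 CPM, 6.95% differed by over 2-fold between them, and the SD of their log2 difference was 0.594. In the other groups with 2 libraries these figures were at most 0.862% and 0.288. The disagreement had a direction, with 419 genes over 2-fold lower in replicate 2 and 41 over 2-fold lower in replicate 1. The test estimates 1 spread per gene over all 11 groups of the series' RA time course, most of which vary less than this pair. Results were therefore also computed without day 6 replicate 1 and without day 6 replicate 2.

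Of 11415 genes tested, 228 were higher (2.00%) and 222 were lower (1.94%) at day 6 than at day 4 in the DPY30-depleted cells (edgeR quasi-likelihood test, Benjamini-Hochberg adjusted p below 0.05 and over 2-fold). Without day 6 replicate 1 the test called 424 genes higher and 818 lower, and without replicate 2 it called 190 and 147. The calls that stood without either of these libraries, in the same direction, were 115 higher and 75 lower. A fit of these 4 libraries alone called 48 and 20, and DESeq2 called 115 and 79. DESeq2 gave no adjusted p to 56 of the 228 and 55 of the 222, which its filter on mean count set aside, Acta1, Acta2, Vcam1, Cxcl12, Cdx2, Cnn1, Krt7, Krt13, Afp, Spp2, Cited1, Hsd11b2 and Tmem92 among them. Of the genes described below as higher or lower, it gave an adjusted p that missed the threshold to Zyx, Rbp4, Spink1, Crabp1, Hoxa9, Hoxb9, Sox3, Nes, Slc7a11, Atf3, Smad6, Cyp1a1, Impact and Mmp2. The day 4 libraries matter too. Afp, Atf3, Cited1, Crabp1, Cyp1a1, Hoxa9, Krt7, Mmp2, Pdgfb, Rbp4, Slc7a11, Smad6, Sox3 and Axin2 lost their call without day 4 replicate 1 and also without day 4 replicate 2. Krt13, Mef2c, Slc2a3, Spp2, Impact and Cct8 lost it without the former alone, and Crmp1, Hoxb3, Hoxb9, Hoxc9, Junb, Kif21b, Nes, Perp, Psmb9, Sox2, Spink1, Ttc21b and Zyx without the latter alone. Scaled to all reads of each library instead of the counted ones, a setting chosen after seeing the data, the median gene had a log2 fold change of -0.249 and the calls were 127 higher and 547 lower. Medians of gene lists below are on the main scale, where the median gene is at 0.00. On the other scale the small positive medians of the RA metabolism, neural progenitor, hypoxia and glycolysis, H3K4 methyltransferase, respiratory chain and proteasome lists were negative. The 14 higher and 74 lower genes whose day 6 libraries were over 2-fold apart differ most between the libraries that carry their call. In the interval before, from day 2 to day 4, auxin-treated cells had 684 genes higher (5.99%) and 326 lower (2.86%), a comparison that shares the day 4 libraries. DMSO cells had 889 higher (7.79%) and 537 lower (4.70%) over the same days.

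**Figure D1:**
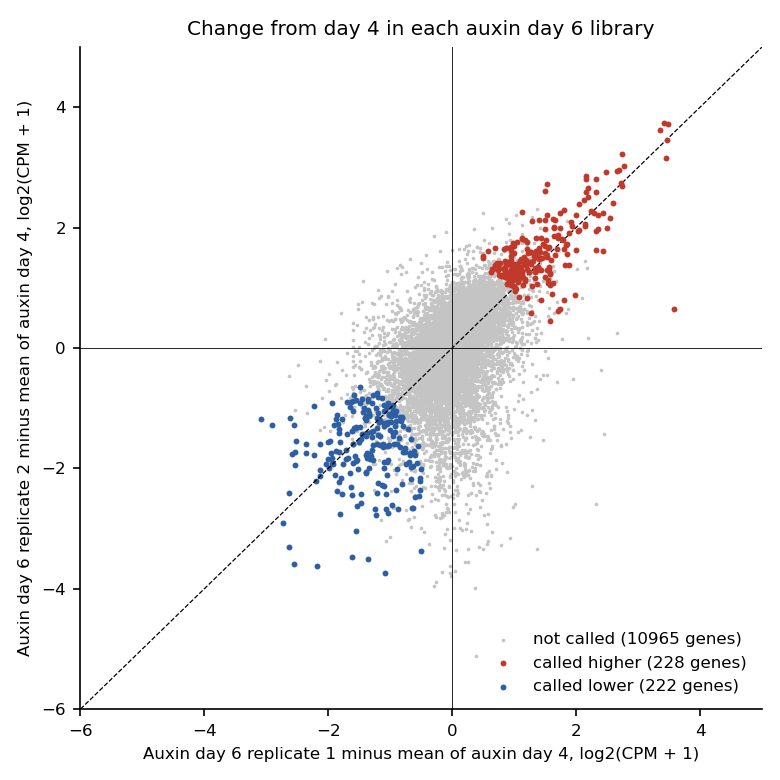
Change from the mean of the auxin day 4 libraries in auxin day 6 replicate 1 (horizontal) and replicate 2 (vertical), in log2(CPM + 1), for 11415 tested genes, with the 228 genes called higher in red, the 222 called lower in blue and the diagonal dashed. The higher genes lie near the diagonal, whereas a tail of genes below it fell in replicate 2 and little in replicate 1.

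Most of what moved in the DPY30-depleted cells lay on the same side in control cells. For 180 of the 228 higher genes the DMSO day 6 library was above both DMSO day 4 libraries, which held for 41.4% of all tested genes. For 166 of the 222 lower genes it was below both, against 40.7% of all tested genes. The other direction was seen for 19 of the higher and 32 of the lower genes. With 1 DMSO day 6 library the difference between the arms was not tested.

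Genes of the actin cytoskeleton and smooth muscle were among those that rose. Of 18 tested genes of a smooth muscle and mesenchyme list, 5 were called higher and none lower, with a median log2 fold change of 0.87. Thy1 (-1.29), Pdgfrb (-0.92) and Cdh2 (-0.32) were the 3 negative members, and none of them was called. Tagln, a defining marker of this list, was not among the tested genes. The list of actin genes responding to SRF and YAP shares Acta2, Tpm1 and Cnn1 with the smooth muscle list. It had 4 of 20 tested members higher, none lower and a median of 0.69. Acta2, smooth muscle actin (GRCm38 chr19:34241090-34255590), had 1.60 and 0.510 CPM at day 4 and 21.1 and 25.01 at day 6, on 4 and 73 reads, a 20.8-fold rise (log2 fold change 4.38 ± 0.55 SE, adjusted p = 1.94e-05). The DMSO day 6 library stood higher still, at 54.1 CPM from 0.436 and 0 at day 4.

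Acta1, skeletal muscle actin, was at 0 and 1.02 CPM at day 4 and at 14.8 and 14.6 at day 6. Its day 4 level rests on 2 reads, so the ratio of 28.2 has a 95% counting interval of 7.39 to 240.0 (adjusted p = 0.000567). The calponin Cnn1, which binds actin in contractile cells, rose from 3.72 and 3.57 to 14.2 and 16.0 CPM, 4.07-fold. Its relative Cnn2 rose 2.67-fold, from 20.7 and 20.4 to 57.5 and 52.1 CPM, and DMSO cells reached 159.9 CPM from 13.5 and 24.1. In each of these genes the day 6 libraries were close to each other.

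Tropomyosin 1 (Tpm1), which lies along actin filaments, had 220.7 and 213.3 CPM at day 4 and 405.7 and 516.9 at day 6, a 2.12-fold rise with a log2 fold change of 0.91 without replicate 2. The focal adhesion protein zyxin (Zyx) rose 2.02-fold and was likewise under the 2-fold line without replicate 2. The calcium-binding protein S100a6 rose 3.76-fold, from 43.6 and 51.5 to 176.9 and 181.3 CPM. Here the auxin-treated cells were above DMSO cells at both days, since DMSO cells had 14.8 and 15.9 CPM at day 4 and 42.6 at day 6. Beta-actin (Actb) went from 2871 and 3020 to 4315 and 5610 CPM, with a log2 fold change of 0.75 ± 0.10 that passed the p threshold (adjusted p = 2.09e-05) and not the 2-fold line. Without day 6 replicate 1 the smooth muscle list had 8 members higher and 1 lower, and without replicate 2 it had 4 and 0. The SRF and YAP list had 5 and 2 without replicate 1 and 4 and 0 without replicate 2.

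SRF binds the CArG box, an element of CC, then A or T bases, then GG. It was searched on both strands in RefSeq promoter windows of GRCm38.p6, from 250 bases before to 50 after the start site, in which 488 of 27025 gene symbols had it (1.81%). Of the higher genes, 174 had such a window and 5 of them held the element (2.87%), namely Acta1, Anxa5, Cited1, Cnn2 and Fhl2. Of 153 lower genes with a window, 5 held it as well (3.27%). The element was in 1.55% of all 9045 tested genes with a window, and a match of letters is not a shown binding site. Of the 6 called members of the 2 actin and smooth muscle lists, 1 held it, namely Cnn2, and Acta1 is in neither list. Elements of another form or outside the window were not searched, so a gene without a match may still hold one. Acta1 and Cnn2 are shown as the actin and calponin genes described above that hold the element, each as 30 bases on the gene's strand with the CArG box in capitals, at chr8:123894829-123894858 for Acta1, 73 bases before the start, and at chr10:79988534-79988563 for Cnn2, 56 bases before it.
Acta1: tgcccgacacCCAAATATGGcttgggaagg
Cnn2: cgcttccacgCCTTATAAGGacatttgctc

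Some genes of simple epithelia rose as well, 5 of 16 tested members of the trophectoderm and simple epithelium list. They were its defining markers, keratins 8, 18, 7 and 19, and the tight junction claudin Cldn4. None of the 16 was called lower, and the median log2 fold change was 0.73. Epcam, Esrp1, Grhl2 and Gata2 were negative (-0.33, -0.31, -0.37 and -0.33) and not called. The transcription factor genes Tfap2a, Tfap2c and Gata3 were not called either (0.36, 0.10 and 0.31). Krt19 (GRCm38 chr11:100140810-100148665) went from 11.7 and 17.4 CPM to 100.7 and 97.3, a 6.78-fold rise (2.76 ± 0.25, adjusted p = 5.69e-08). Krt18 had 60.6 and 79.6 CPM at day 4 and 167.8 and 187.6 at day 6. DMSO cells had 73.9 CPM of Krt19 and 247.0 of Krt18 at day 6.

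Krt8, the partner of Krt18 in the filament, rose from 305.2 and 390.8 to 826.7 and 1041 CPM, but 88.4% of its reads had more than 1 possible position in the genome (multimapped), which leaves its level uncertain. Krt7 rose from 9.04 and 9.18 to 18.2 and 25.7 CPM and lost its call without replicate 2 (adjusted p = 0.207). Krt13, a keratin of stratified epithelia, rose 6.96-fold to 14.8 and 11.1 CPM, whereas DMSO cells had 2.89 CPM at day 6. Cldn4 rose 3.15-fold, from 23.4 and 25.5 to 74.0 and 80.6 CPM, and the junctional adhesion molecule F11r 2.56-fold, from 130.3 and 168.9 to 390.3 and 377.3 CPM. Summed over the list, the 2 day 4 libraries had 1151 and 1257 CPM and the day 6 libraries 2223 and 2594, and DMSO cells went from 1249 and 1308 to 2865.

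**Figure D2:**
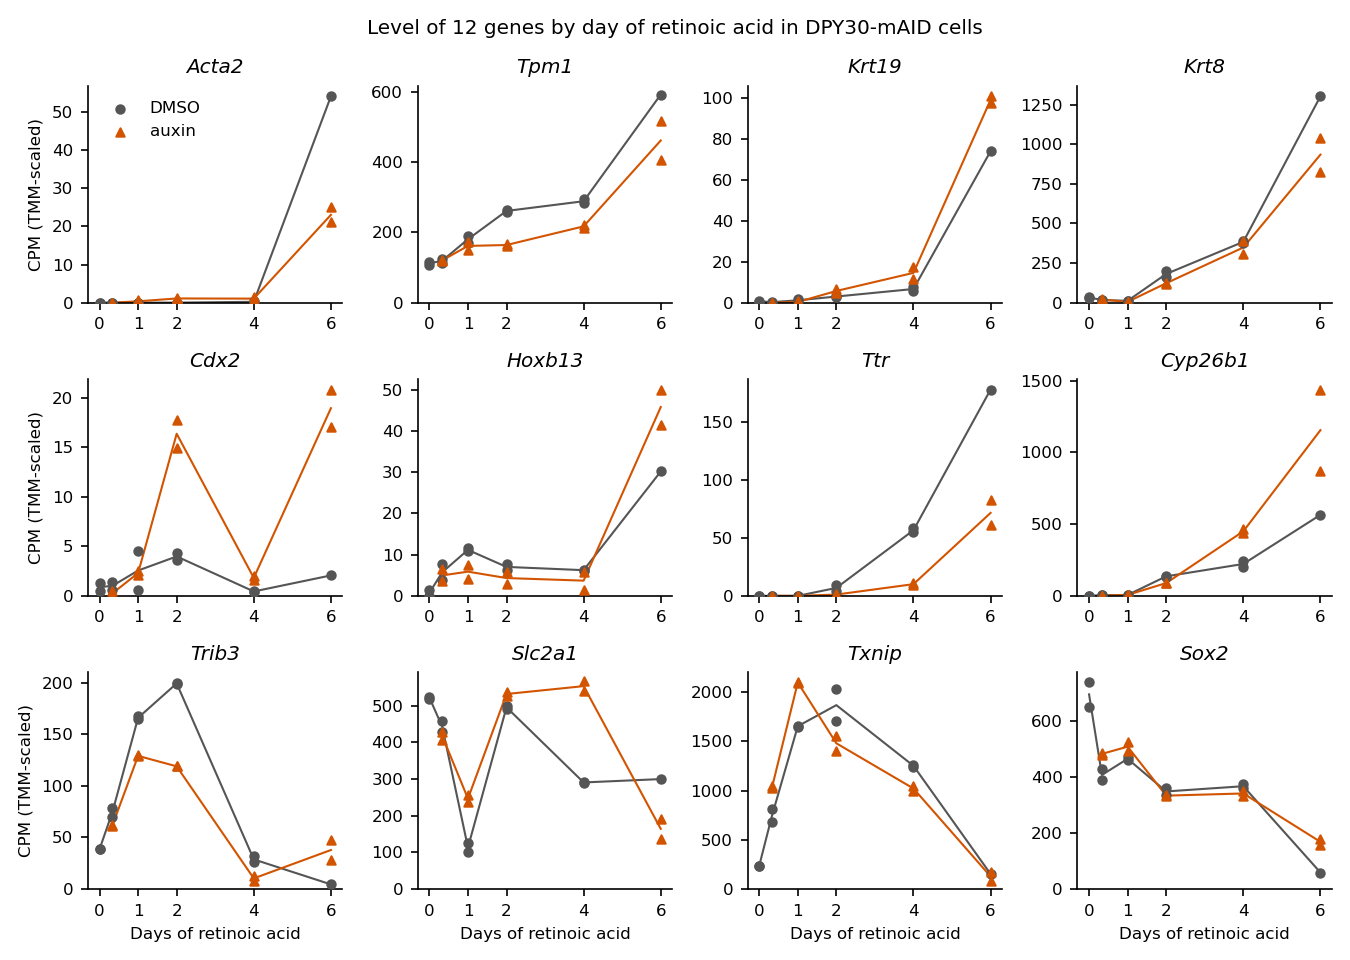
TMM-scaled CPM of 12 genes against days of retinoic acid, with 1 point per library (grey circles, DMSO; orange triangles, auxin) and lines through the mean of each time point; auxin-treated cells have no 0 h library and DMSO has 1 library at day 6. Acta2, Krt19, Krt8, Ttr and Cyp26b1 climb between day 4 and day 6 in both arms, while Cdx2 is at 17.1 and 20.8 CPM in auxin-treated cells at day 6 and at 2.07 in DMSO cells.

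Secreted proteins of visceral endoderm and liver moved in both directions, with 5 members higher, 1 lower and a median of 1.34 over the 12 tested, of which 5 had a negative log2 fold change. DESeq2 called 1 of them and gave no adjusted p to Spp2, Afp and Cited1, and without replicate 1 the median was 1.02. Ttr, the transthyretin that carries thyroid hormone and retinol-binding protein, rose 6.99-fold from 9.04 and 11.2 to 60.9 and 82.7 CPM (adjusted p = 1.17e-06). Afp, the fetal albumin relative, rose from 2.13 and 3.06 to 14.8 and 13.9 CPM, and was not called when either day 4 library was left out. These levels were under those of DMSO cells for Ttr, at 178.5 CPM, and above them for Afp, at 7.85 CPM.

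Spp2 rose on few reads, 3 in both day 4 libraries against 29 at day 6, and Cited1, a transcriptional co-activator, rose 3.24-fold to 15.4 and 15.3 CPM and likewise lost its call without either day 4 library. Rbp4, the plasma carrier of retinol, had 6.38 and 4.59 CPM at day 4 and 11.4 and 16.7 at day 6 and was not called without replicate 2 (adjusted p = 0.224). Spink1, a trypsin inhibitor, fell from 11.2 and 13.3 to 1.14 and 4.86 CPM and was not called without replicate 1 (adjusted p = 0.0987). Apoe, which carries lipids, had 60.1 and 53.1 CPM at day 4 and 26.2 and 50.7 at day 6 (-0.59 ± 0.22) and was not called. The apolipoproteins Apoa1 and Apoa2, also defining markers, had at most 5.69 CPM in any of the 4 libraries and Apob had no read. Summed over the list, the 4 libraries had 125.0 and 120.9 CPM at day 4 and 165.6 and 223.7 at day 6, whereas DMSO cells had 644.8 and 601.6 and then 386.7. The DMSO 0 h libraries had sums of 813.6 and 805.3 CPM with 0 CPM of Ttr, Afp and Spp2. The sum therefore does not follow these markers.

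In the primitive and parietal endoderm list no gene was called among 21 tested (edgeR; 1 over 2-fold at an unadjusted p below 0.05, 0 by DESeq2). Without replicate 1, when replicate 2 alone stood for day 6, 1 was higher and 5 were lower. Gata6, which starts this lineage, had 185.0 and 183.7 CPM at day 4 and 180.4 and 111.2 at day 6, and Sox17 had 27.1 and 19.4 and then 34.1 and 27.8. Gata4 had 10.1 and 19.9 and then 24.5 and 35.4 CPM (0.97 ± 0.30, adjusted p = 0.0382 by edgeR), under the 2-fold line. Sox7 was at -1.22 and not called. In the 4-library fit, 4 members passed the p threshold with a rise and 1 with a fall. DMSO cells had 397.4 CPM of Gata6 and 156.2 of Sox17 at day 6. The summed level of the list was 2934 to 3386 CPM in the 4 libraries. In DMSO cells it was 9939 and 10110 CPM at day 4 and 16770 at day 6.

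RA metabolism moved in both directions, with 3 of 18 tested genes higher and 2 lower, against 1 and 0 without replicate 2. Cyp26b1, the enzyme that inactivates RA, rose from 465.3 and 435.2 to 872.2 and 1439 CPM, 2.56-fold (adjusted p = 1.44e-06), and its log2 fold change was 0.96 without replicate 2. The retinol dehydrogenase Rdh10, which makes the precursor of RA, rose 2.83-fold from 21.8 and 19.9 to 63.7 and 54.2 CPM and stood in every fit that left out 1 library. Crabp2, which brings RA to its receptors in the cell, fell 2.35-fold, from 251.5 and 280.6 to 137.7 and 86.9 CPM, and Crabp1 fell from 16.0 and 15.8 to 7.97 and 6.25 CPM. Without replicate 2 both were short of 2-fold, at -0.95 and -0.99. The receptor genes Rarb, Rara, Rarg and Rxra were not called, with log2 fold changes of -0.16, 0.21, 0.39 and -0.64. At day 6 the DMSO library had 565.1 CPM of Cyp26b1, 43.4 of Rdh10 and 55.8 of Crabp2.

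Over the Hox clusters 5 of 24 tested genes rose and none fell, although without replicate 1 Hoxb2 was called lower (-1.95, adjusted p = 0.00502). The clusters did not rise as a whole, since 3 of 8 Hoxa, 6 of 10 Hoxb and 1 of 6 Hoxc and Hoxd genes had a negative log2 fold change. Scaled to all reads, 0 Hoxa, 2 Hoxb and 0 Hoxc and Hoxd genes were called higher. Hoxb13, which patterns the tail end of the body, rose 12.3-fold from 5.85 and 1.53 to 41.5 and 50.0 CPM (3.62 ± 0.42, adjusted p = 1.55e-06). Hoxb3 rose from 17.6 and 7.65 to 34.7 and 36.8 CPM. Hoxa9, Hoxb9 and Hoxc9 passed with adjusted p of 0.0434, 0.0214 and 0.00887, and each lost its call without 1 of the day 6 libraries, Hoxa9 without replicate 1 and the others without replicate 2. Hoxa9 had a mean of 14.5 CPM at day 2 in auxin-treated cells, 3.67 at day 4 and 10.4 at day 6. Hoxb1, an early RA target, was not called, with a log2 fold change of -0.36 ± 0.11.

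Cdx2, a homeobox gene of trophectoderm and posterior embryo and a known regulator of Hox genes, had 1.60 and 2.04 CPM at day 4 and 17.1 and 20.8 at day 6, a 10.0-fold rise (adjusted p = 0.000106). Its mean had been 16.4 CPM at day 2 in the same arm, so day 4 was a low point between higher levels. DMSO cells had 0.436 and 0.454 CPM at day 4 and 2.07 at day 6. Among the other genes with large rises, Fosl2, an AP-1 factor, rose 7.51-fold from 9.04 and 10.7 to 67.1 and 82.7 CPM, and Cryab, a small heat shock protein, rose 7.67-fold to 30.2 and 30.6 CPM. Both rose in each fit without 1 library, and DMSO cells were at 64.4 and 62.4 CPM.

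Vcam1 and Cxcl12, an adhesion molecule and a chemokine of stromal and endothelial cells, were barely detected at day 4, with 2 reads each over both libraries. They had 14.2 and 18.1 and 14.8 and 11.8 CPM at day 6, and DMSO cells 11.6 and 14.9 CPM. The ratios of reads were 30.6 (95% counting interval 8.06 to 259.8) and 25.8 (6.73 to 220.1). Both are in an inflammation list of 10 tested genes with 2 called higher and 1 lower. In it 5 genes had a negative log2 fold change, Cxcl14 at -1.83 among them. Of 7 tested genes of the endothelium and blood list, 0 were called higher and 1 lower, with a median of -0.32. Pdgfb, a growth factor for mesenchyme, shows how 1 library can make a call. It had 22.8 CPM in day 6 replicate 1 and 2.08 in replicate 2, against 1.60 and 0.510 at day 4, and without replicate 1 it was under the filter on low counts.

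**Figure D3:**
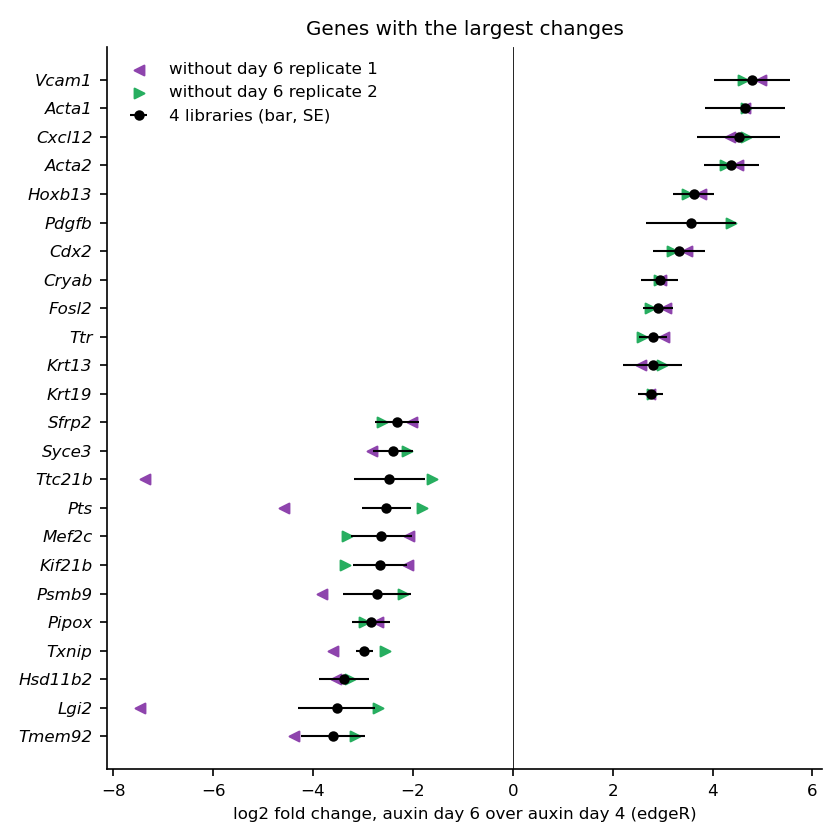
log2 fold change of auxin day 6 over auxin day 4 for the 12 genes with the largest and the 12 with the lowest values that passed the naming rule, from 4 libraries (black, bar is the SE), without day 6 replicate 1 (purple) and without day 6 replicate 2 (green). The higher genes keep close values except Pdgfb, whereas Ttc21b and Lgi2, with 0 reads in replicate 2, and Pts, with 1, lie far lower when replicate 2 alone stands for day 6. Fitted values against 0 reads are no measure of a fold.

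Among the lower genes that passed the naming rule, Slc2a3, Txnip and Slc2a1 had the highest levels. Txnip (GRCm38 chr3:96557957-96561883), which restrains glucose uptake and binds thioredoxin, fell 7.83-fold from 1041 and 999.5 to 172.4 and 84.1 CPM (-2.97 ± 0.17, adjusted p = 4.77e-12). The glucose transporter Slc2a1 (GLUT1) fell 3.35-fold, from 567.4 and 539.3 to 191.7 and 136.9 CPM, and Slc2a3 (GLUT3) 2.04-fold, from 1465 and 1365 to 656.0 and 733.0 CPM. Slc2a3 was just short of 2-fold without replicate 1 (-0.94). DMSO cells matched the fall of Txnip, from 1261 and 1240 to 152.8 CPM. Their Slc2a1 went from 292.5 and 289.0 to 299.9 CPM, so the auxin-treated cells were above the control level at day 4 and below it at day 6. The Slc2a3 of DMSO cells fell less, from 1692 and 1692 to 1419 CPM. In the hypoxia and glycolysis list to which both transporters belong, 21 of 24 tested members were not called, Ndrg1 was higher and the median was 0.04. Ndrg1 was just short of 2-fold without replicate 2 (0.99).

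Among the other large falls, Hsd11b2, which inactivates glucocorticoids, fell from 18.1 and 15.8 to 1.71 and 1.39 CPM, and Pipox, a peroxisomal oxidase of pipecolic acid, from 26.1 and 19.9 to 2.84 and 3.47 CPM. Sfrp2, a secreted Wnt antagonist, fell from 13.8 and 14.8 to 2.28 and 3.47 CPM. These 3 genes were at 0.413, 4.54 and 2.48 CPM in the DMSO day 6 library, below both DMSO day 4 libraries. The membrane protein gene Tmem92 fell from 14.9 and 16.8 to 1.71 and 0.695 CPM, where DMSO cells had 3.49 and 1.36 and then 2.89. The transcription factor Mef2c, the kinesin Kif21b and the secreted Lgi2 fell as well, each on at most 6 reads over both day 6 libraries.

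Most pluripotency genes did not pass the test between day 4 and day 6. Of the 20 members of the naive list, all tested, Sox2 and Zfp42 fell and none rose, with a median of -0.06. Neither was called without replicate 2, and without replicate 1 there were 4 lower. Sox2 had 332.9 and 349.0 CPM at day 4 and 179.8 and 157.0 at day 6, a 2.02-fold fall (adjusted p = 3.33e-07) that was just short of 2-fold without replicate 2 (-0.92). Zfp42 fell 2.24-fold with 79.0% of its reads multimapped, and had -0.79 without replicate 2. Pou5f1, the core factor of pluripotency, had 328.1 and 387.7 CPM at day 4 and 361.3 and 448.1 at day 6 (0.17 ± 0.12, adjusted p = 0.379), and nearly all of its reads were multimapped. Nanog had 257.9 and 223.5 and then 189.5 and 107.7 CPM (-0.68 ± 0.16, adjusted p = 0.00671), under the 2-fold line, with 33.8% of its reads multimapped, and was called lower without replicate 1 (-1.15). At day 6 DMSO cells had 59.1 CPM of Sox2, 466.0 of Pou5f1 and 66.1 of Nanog. Tcf15, a factor of the formative state, fell 2.90-fold, from 60.1 and 70.4 to 22.8 and 22.2 CPM.

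Neural genes showed no common direction. In the neural progenitor list Sox3 and Nes rose among 13 tested, Sox3 from 12.8 and 12.2 to 27.3 and 28.5 CPM, and Nes, an intermediate filament, from 12.8 and 6.12 to 18.2 and 29.2 CPM. Without replicate 1 that list had 2 higher and 2 lower, and DESeq2 called none of it. The call of Sox3 was lost without either day 4 library in turn. The call of Nes was lost without replicate 2 (adjusted p = 0.196). In the neuron list Gap43, a protein of growing axons, fell from 52.6 and 55.1 to 19.9 and 22.9 CPM, and Crmp1 fell on 15 reads at day 4 and 1 at day 6, among 21 tested with a median of -0.21. Without replicate 1 the neuron list had 1 higher and 4 lower, and without replicate 2 it had 0 and 4. The defining markers Pax6 and Dcx were under the filter on low counts, at most 5.12 CPM in the 4 libraries, and Tubb3 was not called (-0.75 ± 0.28, with 53.9% of its reads multimapped). Snap25 had no read in the 4 libraries.

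**Figure D4:**
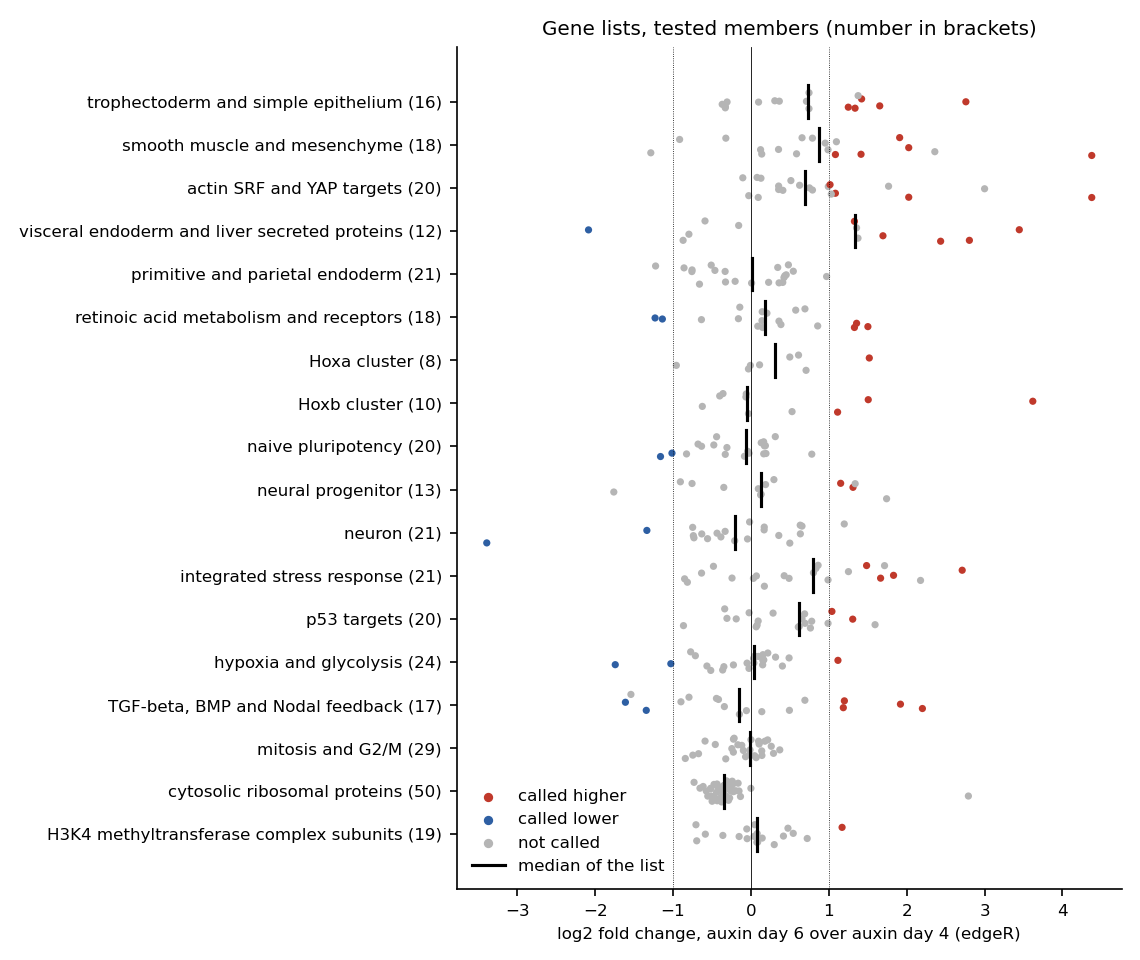
log2 fold change (auxin day 6 over auxin day 4) of the tested members of 18 gene lists, with the number tested in brackets, called genes in red (higher) and blue (lower), other members in grey, the list median as a black bar and dotted lines at 2-fold. The medians of the smooth muscle, epithelial, endoderm secretory and stress lists lie at 0.87, 0.73, 1.34 and 0.80, and the ribosomal protein genes gather at -0.34.

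In the integrated stress response, the programme that ATF4 drives when amino acids or protein folding fail, 4 of 21 tested genes rose and none fell, with a median of 0.80. Without replicate 1 the counts were 7 and 1. Trib3, a pseudokinase induced by ATF4, rose 3.56-fold from 7.98 and 12.8 to 28.5 and 47.3 CPM. Ddit3 (CHOP) rose 3.17-fold from 13.3 and 12.2 to 34.1 and 47.9 CPM. Both passed in each of the 4 fits that left out 1 library. At day 2 the same arm had had means of 118.9 CPM of Trib3 and 49.7 of Ddit3, so day 4 was a low point for both. At day 6 the DMSO library had 4.54 CPM of Trib3 against 25.8 and 31.8 at day 4, the other direction.

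The cystine transporter Slc7a11 rose on 4 reads at day 4 and 23 at day 6, having had a mean of 14.6 CPM at day 2, and Atf3 lost its call without replicate 1. Atf4 itself went from 260.6 and 357.6 to 532.0 and 571.8 CPM (0.83 ± 0.13, adjusted p = 0.000109), under the 2-fold line. Asns, which makes asparagine, had 246.2 and 271.9 and then 153.1 and 182.0 CPM (-0.63 ± 0.12), so members of the list differed in sign. Of the unfolded protein response list, 18 genes were tested and none was called (edgeR; 0 over 2-fold at an unadjusted p below 0.05, 0 by DESeq2), while 2 were lower without replicate 1.

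Cdkn1a (p21), an inhibitor of cyclin-dependent kinases and a p53 target, rose 2.48-fold, from 165.9 and 194.9 to 360.2 and 536.4 CPM (adjusted p = 2.68e-06), where DMSO cells had 125.7 and 138.8 and then 196.6. Without replicate 2 it lost its call, with a log2 fold change of 0.998. Perp rose 2.06-fold and was short of 2-fold without replicate 2 (0.88), and Mdm2, which restrains p53, went from 203.1 and 178.6 to 287.9 and 362.0 CPM (0.76 ± 0.12, adjusted p = 0.000105). The p53 list had 2 of 20 members higher, none lower and a median of 0.61. Without replicate 1 it had 3 higher, 2 lower and a median of 0.30, and without replicate 2 it had 1 higher and none lower. None of 26 genes of DNA replication and none of 29 of mitosis was called (edgeR; 1 and 0 over 2-fold at an unadjusted p below 0.05, 0 by DESeq2), with medians of -0.18 and -0.02. Without replicate 1, 2 of the former and 4 of the latter were lower.

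Signalling genes moved in both directions. The Nodal antagonists Lefty1 and Lefty2 rose 4.60-fold and 3.79-fold, Lefty1 from 9.04 and 9.18 to 43.8 and 40.3 CPM, and 26.2% of the Lefty2 reads were multimapped. Their means at day 2 had been 75.7 and 88.8 CPM, above those of day 6. Pmepa1, which dampens TGF-beta signalling, rose 2.30-fold. Smad6 had 63.7 CPM in day 6 replicate 1 and 28.5 in replicate 2, against 20.2 and 20.9 at day 4, and lost its call without replicate 1. Tgfbi fell 2.54-fold from 45.7 and 55.1 to 15.4 and 25.01 CPM, and Id1, a target of BMP signals, had 918.3 and 965.8 and then 543.4 and 466.2 CPM (-0.90 ± 0.09, adjusted p = 2.22e-07), under the 2-fold line. Of 17 tested genes of this list, 4 rose and 2 fell, against 3 and 5 without replicate 1 and 4 and 1 without replicate 2.

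Cyp1a1, the enzyme that marks activity of the aryl hydrocarbon receptor, had 60.1 and 59.2 CPM at day 4 in auxin-treated cells against 0.436 and 0.454 in DMSO cells. At day 6 the auxin libraries had 41.5 and 4.86 CPM. Its fall (adjusted p = 0.0379) was not called without replicate 2 (adjusted p = 0.232).

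Cytosolic ribosomal protein genes leaned one way by a small amount. None of 50 tested was called (edgeR; 1 over 2-fold at an unadjusted p below 0.05, 0 by DESeq2), yet 49 had a negative log2 fold change, the median was -0.34, and 20 of them passed the p threshold without the fold. Their summed level was 36700 and 44190 CPM at day 4 and 30230 and 33890 at day 6, and 58240 and 57180 and then 31800 in DMSO cells. The respiratory chain and the proteasome had medians of 0.08 and 0.09 over 34 and 26 tested genes, none of them called (edgeR; 0 over 2-fold at an unadjusted p below 0.05, 0 by DESeq2). Over all 50 lists examined, 14 had no member called among 298 tested members (edgeR; 5 over 2-fold at an unadjusted p below 0.05, 0 by DESeq2). Without replicate 1, 1 of these members was higher and 21 were lower, among them 1 each of the respiratory chain and the proteasome. Without replicate 2 there were 2 higher and 1 lower.

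Dpy30 RNA, which the degron does not target, had 54.2 and 48.0 CPM at day 4 and 36.4 and 31.3 at day 6 (-0.59 ± 0.18, adjusted p = 0.0400), beside DMSO cells at 49.8 and 49.0 and then 42.6. Among 19 tested subunits of the H3K4 methyltransferase complexes, Kmt2b rose 2.25-fold, from 26.6 and 28.1 to 50.6 and 73.7 CPM, with 34.3% of its reads multimapped, and its log2 fold change without replicate 2 was 0.89. Wdr5, with 28.0% multimapped reads, went from 358.4 and 305.1 to 226.5 and 178.6 CPM (-0.71 ± 0.11) and Setd1b from 77.6 and 85.7 to 123.5 and 147.3 (0.72 ± 0.14), both under the 2-fold line. By edgeR none of 6 tested genes of the H3K4 demethylase list, which includes the partner Rcor1, and none of 21 Polycomb subunits was called. In either list 0 were over 2-fold at an unadjusted p below 0.05 and 0 were called by DESeq2. The medians of the 2 lists were 0.05 and 0.15 without replicate 1, and -0.14 and 0.08 without replicate 2.

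Over the 20 chromosomes the median log2 fold change ran from -0.09 to 0.05.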

How the data were processed

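QuantSeq 3′ libraries without molecular identifiers were counted by the authors over GENCODE vM14 3′ UTR intervals on GRCm38. The file headers name SlamDunk 0.3.4, the notes and methods HISAT2 2.2.1 and featureCounts. The deposited read counts per interval were summed per Ensembl gene identifier, giving 20177 genes. The deposited CPM column, reads per total library reads by the authors, served in 1 alternative. The identical DMSO day 6 files were used as 1 library, and SLAM-seq files were not used.

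One edgeR 4.0.16 quasi-likelihood fit (R 4.3.3, TMM) covered the 21 RA libraries in 11 groups, without a block for replicate number, keeping genes that averaged 10 reads or more in any group. A call needed a Benjamini-Hochberg adjusted p under 0.05 and over 2-fold. Replicate differences of day 4 and day 6 correlated at -0.0156 over 11415 genes. In counts simulated with a dispersion of 0.05 for this comparison, 85% of 200 genes changed by a log2 of 2 and 11 unchanged genes were called among 10822; the wider spread of the day 6 pair was not simulated. Intervals on ratios of reads are exact and cover counting error only. Text names the 12 largest and 12 lowest changes with non-overlapping libraries, a mean of at least 20 reads per library in the higher group and under 20% multimapped reads, the 12 such genes of highest level, up to 6 called and the first 4 members of each of 50 gene lists, and H3K4 methyltransferase subunits. Genes named for a motif were chosen after their values were seen. The samples and lists were chosen with earlier results of these data known. Alternatives, DESeq2 1.42.0 among them, are given in the closing section.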

Additional observations from a re-analysis of the deposited data

Results flagged for a closer look

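Of 95 named genes that were called, 13 moved 1 way in the auxin libraries and the other way in the DMSO day 6 library. In the latter they lay beyond both DMSO day 4 libraries. Auxin libraries of the 2 days did not overlap in any of the 228 higher and 222 lower genes. Of all tested genes, 47.0% had no overlap. The DMSO day 6 library lay on the other side for 19 of the 228 and 32 of the 222. With 1 DMSO day 6 library the difference between the arms was not tested, and the 13 genes were found by looking at all named genes. Higher at day 6 in auxin-treated cells and lower in DMSO cells were Slc7a11 with a log2 fold change of 2.71, Trib3 with 1.83, Hoxa9 with 1.52, Hoxb3 with 1.51, Rbp4 with 1.33, Hoxc9 with 1.12, Ndrg1 with 1.12 and Hoxb9 with 1.11. Lower in auxin-treated cells and higher in DMSO cells were Pts with -2.53, Axin2 with -2.07, Slc2a1 with -1.74, Impact with -1.3 and Cct8 with -1.14.

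Some of the higher genes had stood higher before day 4 in the auxin arm. Their means at day 2 and day 6 were 118.9 and 37.9 CPM for Trib3, 14.6 and 7.17 for Slc7a11, 14.5 and 10.4 for Hoxa9 and 14.4 and 14.0 for Rbp4.

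The size of the opposite move in DMSO cells was uneven. Trib3 went from 25.8 and 31.8 to 4.54 CPM and Ndrg1, a stress-induced gene, from 90.4 and 127.9 to 59.1 CPM. Slc2a1 went from 292.5 and 289.0 to 299.9 CPM, a far smaller step, and Axin2 stood at 4.54 CPM in the DMSO day 6 library and in 1 of the DMSO day 4 libraries to this rounding. The genomically imprinted gene Impact had 39.8 CPM in auxin day 6 replicate 1 and 9.03 in replicate 2, against 68.6 and 57.1 at day 4 and 98.7 in DMSO cells at day 6, and DESeq2 did not call it. Axin2 was called in 1 of the 4 fits that left out a library and Hoxa9 and Rbp4 likewise, whereas Trib3, Slc2a1 and Pts were called in all 4.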

How the results depend on the processing

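Against 228 genes higher and 222 lower, the counts stayed within 1.5 times with DESeq2's size factors, without TMM, with no or another filter on low counts, and without multimapped reads. They were 384 and 416 at an unadjusted p, 48 and 20 with day 4 and day 6 alone in the fit, and 115 and 79 with DESeq2. They were 127 and 547 with scaling to all reads, chosen after seeing the data. Leaving out 1 library gave 149 to 424 higher and 107 to 818 lower, both highest without day 6 replicate 1. A fit with 1 day 6 library assumes that it varies like the other groups. From day 2 to day 4, DESeq2 gave 384 genes higher in auxin-treated and 554 in DMSO cells, and without TMM 205 genes were lower in auxin-treated cells. The causes of these shifts were not tested.

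With a replicate block the counts were 223 higher and 211 lower, and 93 of 95 named called genes kept their call. The labels give the numbers no meaning and there are 2 pairs, so the numbers do not pair the libraries. None of the named genes that were called changed sign in these settings, whereas some that were not called did, among them Rara (0.21, and -0.25 without day 6 replicate 1) and Hoxb2 (-0.06, and 0.64 without day 6 replicate 2). Of the named called genes, 32 of 93 kept their call with day 4 and day 6 alone in the fit, 51 of 70 with DESeq2, 74 of 95 with scaling to all reads, 62 of 95 and 56 of 94 without day 4 replicate 1 and 2, and 83 of 94 and 59 of 95 without day 6 replicate 1 and 2. Depth limits genes of few reads most.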

Other observations

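Extracellular matrix genes moved in both directions in the DPY30-depleted cells, with 3 of 22 tested higher, 1 lower and a median log2 fold change of 0.38. Without day 6 replicate 1 it had 5 higher and 1 lower, and without replicate 2 it had 2 and 0. Timp2, an inhibitor of matrix metalloproteases, rose from 47.9 and 38.8 CPM at day 4 to 84.2 and 138.3 at day 6, and was just short of 2-fold without day 6 replicate 2 (0.96). The metalloprotease Mmp2 fell from 28.2 and 29.1 to 14.2 and 9.73 CPM and was called in 1 of the 4 fits that left out a library and not by DESeq2. DMSO cells at day 6 had 221.8 CPM of Timp2 and 11.2 of Mmp2.

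In the interferon response list 2 of 15 tested genes fell and none rose, but neither was called without day 6 replicate 2, and without replicate 1 there were 1 higher and 3 lower. The class I histocompatibility gene H2-K1 fell from 34.6 and 34.2 to 17.6 and 12.5 CPM, and the immunoproteasome subunit Psmb9 from 8.51 and 12.8 to 2.28 and 0.695 CPM, on 5 reads at day 6 and with no call without day 4 replicate 2. Among FGF and ERK feedback genes Il17rd, an inhibitor of FGF signalling, fell from 73.4 and 83.2 to 34.1 and 33.4 CPM and Junb, an AP-1 factor, rose from 10.6 and 9.69 to 27.9 and 22.2 CPM, a call lost without day 4 replicate 2, and the median was -0.41 over 21 tested. Without replicate 1 that list had 1 higher and 4 lower. Il17rd kept its call in each of the 4 fits that left out a library, and DMSO cells had 60.2 and 69.0 CPM at day 4 and 27.7 at day 6.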
